A study of Homo sapiens with 2 samples.

Results

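The glycolysis and hypoxia response genes described here are 33 genes of the 62700 in the gene table. They comprise 15 glycolytic enzymes, a pair of glucose transporters, and 16 genes that sense low oxygen or respond to it. They were named by symbol, and each symbol matched exactly 1 Ensembl gene. The list was chosen after a comparison of these same libraries had shown hypoxia and glycolysis genes higher in the second library, so the difference between the libraries is given below as a description, with no test of these genes.

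RNA came from TCam-2, an established human testicular cancer cell line used as a model of seminoma. The cells had been transduced with a FLAG-tagged DDX53 construct, so both libraries, replicate 1 and replicate 2, are labelled as overexpressing this RNA helicase. They form the only group. Control cells, transduced with GFP-FLAG or left untransduced, were not analysed here, and no effect of DDX53 can be read from these values. The labels do not say whether the replicates were separate cultures, which clones or pools of cells were used, or at which oxygen level the cells grew beyond an incubator gas of 5% CO2.

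Glycolysis splits glucose into pyruvate in the cytosol and yields ATP without oxygen. Hypoxia-inducible factor (HIF) is a pair of proteins whose alpha subunit is made constantly but destroyed when oxygen is present, because prolyl hydroxylases mark it for the ubiquitin ligase that holds VHL. When oxygen falls, the alpha subunit survives, binds DNA at a short motif with the core CGTG, and raises transcription of glycolytic enzymes, glucose transporters and genes for blood vessel growth, acid export and mitochondrial turnover.

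The libraries held 24137664 and 22198929 reads in genes, so a gene without a read could still reach 0.124 and 0.135 CPM. CPM is the number of reads of a gene per 1000000 reads in all genes, without regard to gene length. DDX53 held 146 and 147 reads, or 6.05 and 6.62 CPM, with no control library beside it. All 6 seminoma markers (POU5F1, NANOG, TFAP2C, SOX17, PRDM1, KIT) were detected, at a summed 4158 and 4157 CPM. Of 6 fibroblast markers 4 were detected, at a summed 499 and 477 CPM, mostly from COL1A2, while DCN lay at a mean of 0.0432 CPM. Of 4 embryonal carcinoma markers 3 were detected, at a summed 260 and 226 CPM. The part of such cells in the values below was not tested.

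A near-complete choice between alternative sequences was seen in PKM, the pyruvate kinase that makes the last ATP of glycolysis. Its transcripts carry 1 of 2 exons of 167 bases, one giving the M1 form found in muscle and brain and the other the M2 form found in embryonic and proliferating cells. The exons are shown because the 2 forms differ only there. Both are given 5′ to 3′ on the coding strand from GENCODE release 29 on GRCh38, with capitals at the 62 positions where they differ.
PKM-202, M2 exon: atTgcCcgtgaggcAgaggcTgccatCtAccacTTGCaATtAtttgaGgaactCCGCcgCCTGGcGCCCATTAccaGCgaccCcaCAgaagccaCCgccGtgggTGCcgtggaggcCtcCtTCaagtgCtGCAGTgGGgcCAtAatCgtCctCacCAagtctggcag
PKM-201, M1 exon: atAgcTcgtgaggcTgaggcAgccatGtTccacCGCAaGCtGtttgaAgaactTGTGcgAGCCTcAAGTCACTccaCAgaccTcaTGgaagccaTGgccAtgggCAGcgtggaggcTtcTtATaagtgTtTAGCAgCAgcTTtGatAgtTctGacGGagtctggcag
The M2 exon lies at chr15:72202454-72202620 and the M1 exon at chr15:72203022-72203188, both on the minus strand and both coding, and they are 62.9% identical.

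P4HA1, a catalytic subunit of the enzyme that hydroxylates proline in collagen, has a choice of the same kind between coding exons of 71 bases. They lie on the minus strand at chr10:73043887-73043957, used by transcript P4HA1-203, and at chr10:73044981-73045051, used by P4HA1-202. Capitals again mark the bases that differ, 28 in all.
P4HA1-203 exon: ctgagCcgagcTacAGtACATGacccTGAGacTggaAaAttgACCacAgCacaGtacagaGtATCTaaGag
P4HA1-202 exon: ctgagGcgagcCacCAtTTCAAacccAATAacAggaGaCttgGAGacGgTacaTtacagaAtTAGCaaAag

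HIF1A, the main HIF alpha subunit, showed a smaller variation, 3 bases at the start of an exon on the plus strand of chromosome 14. The exon starts at 61720382 in HIF1A-202 and at 61720379 in HIF1A-203. The junctions are shown because these 2 transcripts carried nearly all of the gene's signal, with the added bases in capitals.
HIF1A-202 junction: gaacgacaagaaaaagataagttctgaacg
HIF1A-203 junction: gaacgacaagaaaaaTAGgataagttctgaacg

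Of the 33 genes, 31 were detected, meaning at least 1 CPM in both libraries, against 21.7% of all genes in the table. The 33 together took 1.79% of the first library's reads and 1.87% of the second's, with 95% Wilson intervals of 1.788% to 1.798% and 1.866% to 1.877%. That is a mean of 1.83% ± 0.0552 (SD, n = 2). In such bulk RNA, fewer cells expressing a gene and less of its RNA per cell cannot be told apart. Levels of different genes are compared below in TPM, transcripts of a gene per 1000000 transcripts, which corrects for length, summed over the transcripts of a gene. On that scale the 33 genes held 1.64% and 1.71% of each library, and the 5 highest of them (GAPDH, TPI1, ENO1, ENO2 and ALDOA) held 78.6% of the genes' total in each library. By mean TPM, GAPDH ranked 4th and CA12 19598th among 57815 genes.

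**Figure D1:**
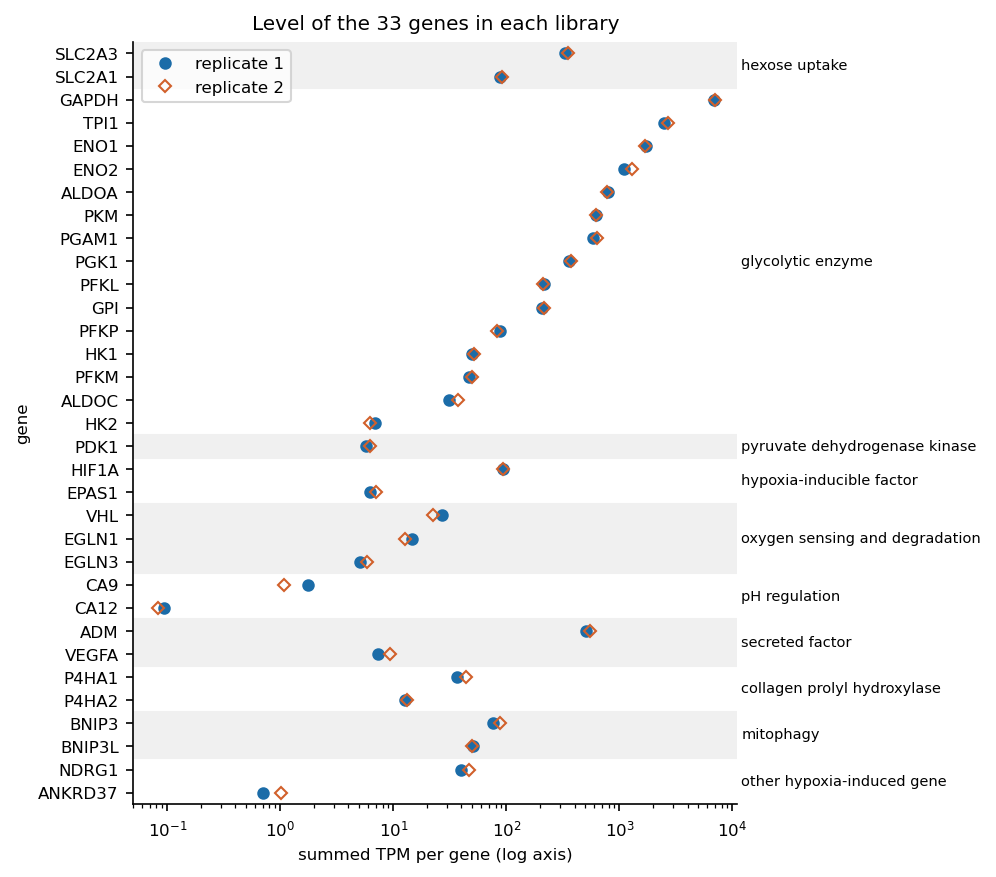
Summed TPM of each of the 33 genes (log axis) in replicate 1 (filled circles) and replicate 2 (open diamonds), grouped by role. GAPDH leads at 6799 and 6973 TPM, and CA12 is last at 0.0926 and 0.0829 TPM.

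Glucose enters through transporters of the SLC2A family. SLC2A3 (GLUT3), the high-affinity transporter typical of neurons, stood at 329 TPM in replicate 1 and 350 TPM in replicate 2. SLC2A1 (GLUT1), the transporter of most dividing cells, stood at 87.9 and 91.1 TPM. SLC2A3 thus held 78.2% and 78.6% of the summed TPM of 5 transporters, and SLC2A1 20.9% and 20.5%. SLC2A14, a near copy of SLC2A3 that can share its reads, held 0.747% and 0.845%, while SLC2A2 and SLC2A4, the liver and muscle types, were each under 1 TPM in both libraries.

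Hexokinases trap glucose in the cell by phosphorylating it. HK1, the general form, stood at 49.9 and 52.1 TPM, and HK2, the form that HIF induces in many tumours, at 6.84 and 6.20 TPM. HK1 held 83.6% and 84.9% of the family, ahead of HK2 in both libraries. HKDC1 held 1.01% and 0.567%, and HK3 had 0 and 1 reads.

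GPI, which converts the resulting sugar phosphate to its fructose form, stood at 204 and 217 TPM. Phosphofructokinase, the main control point of glycolysis, is built from 3 subunit genes, and all were present. PFKL, the liver-type subunit, held 61.6% and 61.8% of the family at 214 and 212 TPM. PFKP, the platelet type, held 25.1% and 23.8% at 87.2 and 81.7 TPM. PFKM, the muscle type, held 13.3% and 14.3% at 46.3 and 49.1 TPM. The order PFKL, PFKP, PFKM was the same in both libraries.

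Aldolase splits the doubly phosphorylated sugar. ALDOA, the muscle and general form, stood at 784 and 780 TPM, and ALDOC, the brain form, at 30.7 and 37.0 TPM. In TPM, ALDOA therefore held 96.2% and 95.5% of the family. The gene table shows the reverse: ALDOA had 68 and 50 reads and ALDOC 880 and 940, so by reads per kilobase ALDOC held 94.5% and 96.2%. The difference between the tables is taken up below.

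The next steps followed. TPI1, the isomerase that interconverts the products of that split, stood at 2455 and 2681 TPM. GAPDH, the dehydrogenase that follows it, stood at 6799 and 6973 TPM. PGK1, the kinase of the first ATP-making step, stood at 358 and 369 TPM, and PGAM1, the mutase, at 588 and 630 TPM. PKM stood at 618 and 621 TPM. GAPDH, PGK1, PGAM1 and PKM each held over 99% of their family in both libraries. The sperm-specific paralogs GAPDHS and PGK2 were at or near 0, with 0 and 0.0439 TPM for GAPDHS and 0 in both libraries for PGK2.

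Enolase, the step before pyruvate kinase, had 2 abundant paralogs. ENO1, the general form, stood at 1723 and 1690 TPM. ENO2, known as neuron-specific enolase, stood at 1093 and 1302 TPM. ENO1 led in TPM with 61.1% of the family in replicate 1 and 56.4% in replicate 2, while ENO2 held 38.8% and 43.5%. By reads per kilobase of merged exons the 2 were level in replicate 1, with 50.01% for ENO1 and 49.92% for ENO2, and ENO2 led in replicate 2, with 54.8% against 45.2%. Before division by length ENO1 had more reads, 53994 and 48293, against 43735 and 47511 for ENO2. Their merged exons span 5276 and 4281 bases. The order of the 2 enolases therefore depends on the length by which reads are divided. ENO3, the muscle form, held 0.0950% and 0.111% of the summed TPM.

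GAPDH (chr12:6533927-6538374), TPI1 (chr12:6867119-6870948), ENO2 (chr12:6913745-6923698) and SLC2A3 (chr12:7919230-7936275) lie on the short arm of chromosome 12. These 4 genes held 65.3% and 66.2% of the summed TPM of the 33. GAPDH was the largest of them, at 6799 and 6973 TPM, and SLC2A3 the smallest, at 329 and 350 TPM. The share of this arm over all genes is not given, and the part of gene copy number was not tested.

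After glycolysis, pyruvate is either reduced to lactate or sent to mitochondria. PDK1, a kinase that restrains the mitochondrial route by inhibiting pyruvate dehydrogenase, stood at 5.69 and 6.26 TPM. It was second in its family with 23.9% and 24.3%, behind PDK2 with 57.0% and 55.7%. By reads per kilobase PDK3 led with 50.2% and 48.8%, ahead of PDK2, and PDK1 held 11.8% and 12.6%. PDK3 reads lay above the number predicted from TPM, by 2.62 and 2.26 on the log2 scale, so its lead is uncertain. Lactate dehydrogenase is not among the 33. In TPM LDHB led LDHA, with 81.8% and 78.7% of the family, while LDHB had 273 and 293 reads against 10300 and 10261 for LDHA. The LDHB reads were 109-fold and 86.9-fold under the number predicted from its TPM, as described for ALDOA below, so the order of these genes is uncertain.

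Among the HIF alpha subunits, HIF1A (chr14:61695513-61748259) stood at 92.6 and 93.8 TPM and EPAS1, which encodes HIF-2alpha (chr2:46293667-46386703), at 6.19 and 6.94 TPM. HIF1A held 93.0% and 92.4% of the family and EPAS1 6.21% and 6.84%. HIF3A held 0.842% and 0.790%. Reads per kilobase gave HIF1A 92.3% and 92.2%, so both tables show the same order here.

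Oxygen is sensed by the EGLN prolyl hydroxylases. EGLN1 (PHD2), held to be the main sensor in most cells, stood at 14.5 and 12.5 TPM and EGLN3 (PHD3), itself a HIF target, at 5.02 and 5.89 TPM. In TPM the family was led by EGLN2, which is not among the 33, with 73.6% and 75.5%. EGLN1 held 19.6% and 16.6% and EGLN3 6.77% and 7.82%. By reads per kilobase EGLN3 led with 57.9% and 60.1%, where EGLN1 had 78 and 56 reads and EGLN2 56 and 70. Both lay far under the number predicted from TPM, EGLN2 by 32.9-fold and 25.1-fold, so the lead of EGLN3 rests on doubtful counts. VHL, which recognises the hydroxylated alpha subunit, stood at 26.8 and 22.6 TPM.

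The 2 membrane carbonic anhydrases that serve as common markers of HIF activity in tumours were at the bottom of the range. CA9 had 35 and 31 reads, or 1.45 and 1.40 CPM. CA12 had 6 and 10 reads, or 0.249 and 0.450 CPM (95% Wilson intervals 0.114 to 0.542 and 0.245 to 0.829), and was not detected at the threshold. ANKRD37, an ankyrin repeat gene induced by HIF, was the other gene not detected, with 9 and 13 reads, or 0.373 and 0.586 CPM.

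Secreted factors differed widely. ADM, the precursor of the vasodilator adrenomedullin, stood at 505 and 547 TPM. VEGFA, the main growth factor of blood vessels, stood at 7.25 and 9.23 TPM. Within its family VEGFB led with 61.6% and 62.4%, ahead of PGF with 21.5% and 20.7% and VEGFA with 15.5% and 16.2%.

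BNIP3 and BNIP3L, receptors that direct mitochondria to autophagy, stood at 76.4 and 88.1 TPM and at 50.9 and 49.4 TPM. BNIP3 led by TPM, with 60.0% and 64.1% of the pair, and BNIP3L led by reads per kilobase, with 56.8% and 53.8%. P4HA1 stood at 36.4 and 43.6 TPM and its paralog P4HA2 at 12.5 and 13.2 TPM. P4HA1 held 72.7% and 75.2% of its family. NDRG1, a gene induced by stress and low oxygen, stood at 39.6 and 46.7 TPM. It held 49.1% and 52.0% of its family by TPM, while NDRG3 led by reads per kilobase with 72.9% and 70.1%. That lead rests on length, as merged exons span 9823 bases in NDRG1 and 3248 in NDRG3. Their reads were close, 1630 and 1761 for NDRG1 and 1751 and 1648 for NDRG3.

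**Figure D2:**
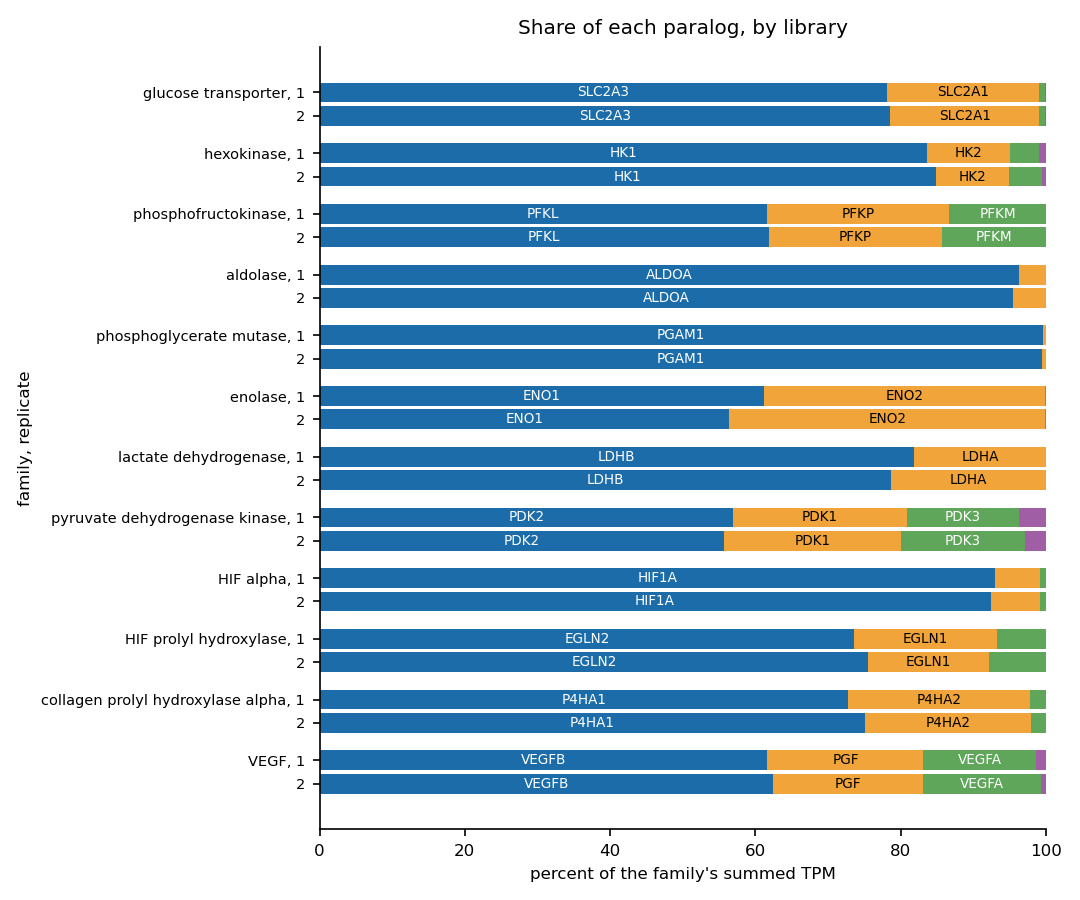
Share of each paralog in the summed TPM of its family (percent, stacked from 0) for 12 of 18 families, with replicate 1 above replicate 2. Within each bar paralogs are ordered alike in both libraries, and shares above 9% carry the gene's name. The leading paralog is the same in both libraries for all 12, and the enolase bar is split between ENO1, at 61.1% and 56.4%, and ENO2, at 38.8% and 43.5%. The families of GAPDH, PGK1, PKM, CA9, BNIP3 and NDRG1 are not drawn.

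Across 18 families, the median share of the leading paralog was 76.5%. In 7 families reads per kilobase put another gene first: aldolase, enolase, lactate dehydrogenase, pyruvate dehydrogenase kinase, HIF prolyl hydroxylase, BNIP3 and NDRG. This measure also depends on merged exon length, as described for enolase and NDRG.

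The gene table and the transcript table could be set against each other by predicting each gene's CPM from its TPM and transcript lengths. This was done for all 33 genes, and large shortfalls were counted among the 25 that reached 10 TPM in each library. Reads fell more than 4-fold short of the prediction in both libraries for 2 of them, ALDOA and EGLN1, against a background of 4.92% of protein-coding genes. For ALDOA (chr16:30064164-30070457) the 2.82 and 2.25 CPM observed were 277-fold and 346-fold under the prediction. For EGLN1 (chr1:231363751-231425044) the 3.23 and 2.52 CPM were 21.4-fold and 23.7-fold under it. In release 29, 42.3% of ALDOA's exonic length overlaps AC093512.2 on the same strand, which had 24 and 27 reads. For EGLN1 that overlap is 0% in release 29, which may not be the annotation used for counting. How the authors counted reads that fit more than 1 gene is not given in the sources used here, and the part of overlap in these values was not tested.

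Smaller gaps were seen in other genes. BNIP3 lay 2.14-fold and 2.07-fold under the prediction, PGAM1 1.80-fold and 1.82-fold, and GAPDH 1.42-fold and 1.44-fold. ADM lay 1.25-fold and 1.26-fold under it, and NDRG1 1.17-fold and 1.19-fold. GAPDH, PGAM1 and BNIP3 have pseudogene copies that can share reads, so their counts are uncertain, and the part of such copies in these gaps was not tested. TPI1, ENO1, PKM and PGK1 lay above the prediction, by 0.11 to 0.20 on the log2 scale. SLC2A1 lay above the prediction, by 0.72 and 0.66 on the log2 scale.

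**Figure D3:**
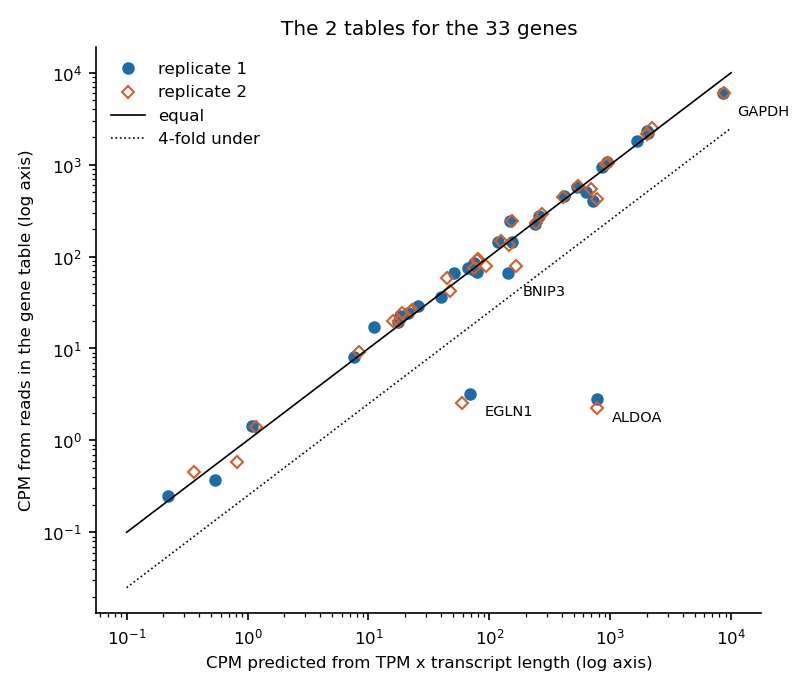
CPM from the gene table against CPM predicted from TPM and transcript length (both log axes), 1 point per gene and library. The solid line marks equal values and the dotted line reads 4-fold under the prediction. ALDOA and EGLN1 lie below the dotted line in both libraries, and BNIP3, 2.14-fold and 2.07-fold under, lies between the lines.

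The transcript table shows which isoform of each gene was used. Of the genes reaching 10 TPM, 25 had more than 1 matched transcript, and 0 of these had another leading transcript in replicate 2 than in replicate 1, against 6.9% of all such genes. The leading transcript held a median of 95.6% and 95.3% of a gene's TPM, and over all such genes the median was 72.3% in replicate 1. It held at least 90% in 15 of the 25 genes in replicate 1, against 28.0% of all such genes. These are TPM estimates, and transcripts whose version equals that of release 29 carried only 17.0% and 16.3% of the genes' TPM, so lengths and ends may differ from those the authors used.

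PKM was nearly all of the M2 form. Transcript PKM-202 held 95.6% and 95.3% of the gene's TPM. Summed over all transcripts with either exon, the M2 exon shown above was in 99.2% and 99.0% of TPM and the M1 exon in 0.775% and 1.03%, a mean of 99.1% ± 0.179 (SD, n = 2) for M2. For P4HA1 the exon of P4HA1-203 held 79.1% and 80.9%, and that of P4HA1-202 20.9% and 19.1%. Both exon choices differed by less than 2 percentage points between the libraries.

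For HIF1A the shorter exon of HIF1A-202 held 72.1% and 67.2% of TPM and the exon with 3 added bases 27.9% and 32.8%. The depth behind this split is unknown, since TPM keeps none.

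SLC2A1 stood apart in the type of its leading transcript. SLC2A1-208, which release 29 lists as a target of nonsense-mediated decay with a coding part of 519 bases, held 91.3% and 87.0%. SLC2A1-203, with a coding part of 1476 bases, held 8.68% and 11.7%. The version of SLC2A1-203 differs from that in release 29. Reads of SLC2A1 lay 0.72 and 0.66 above the prediction on the log2 scale, so the split between its transcripts is uncertain. GPI was the most divided, with GPI-208 at 35.1% and 31.0%, GPI-205 at 29.99% and 28.3%, GPI-201 at 22.1% and 20.6%, and GPI-222, another transcript listed under nonsense-mediated decay, at 10.9% and 16.8%. PGK1-206 held 66.7% and 65.1%, with 24.2% and 25.8% in the noncoding PGK1-205. BNIP3L-201 held 48.2% and 49.2%, with 30.2% and 23.3% in the noncoding BNIP3L-205.

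VHL-201 held 61.4% and 62.3% of its gene. PFKM-210 held 58.5% and 58.7%, P4HA2-203 65.0% and 58.5%, and ALDOC-201 80.4% and 86.8%. ENO2-201 held 88.7% and 88.8%. The leading transcripts of HK1, PFKL, PFKP, ALDOA, TPI1, GAPDH, PGAM1, ENO1, SLC2A3, ADM, BNIP3, NDRG1 and EGLN1 each held over 95% in both libraries. Under 10 TPM the leading transcript was not always the same, as HK2-201 held 63.6% in replicate 1 and 38.4% in replicate 2, where HK2-202 led with 61.6%.

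**Figure D4:**
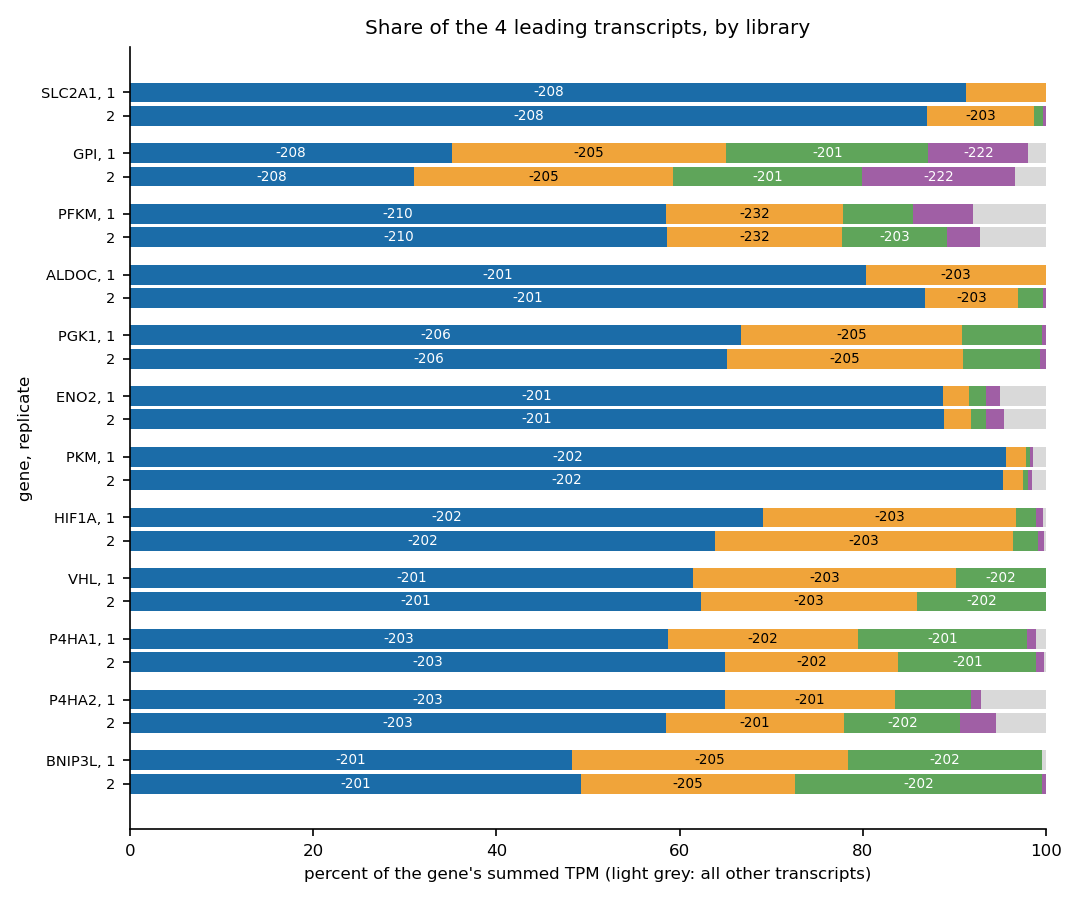
Share of the 4 leading transcripts in the summed TPM of 12 genes (percent, stacked from 0), with replicate 1 above replicate 2. Labels give the transcript number after the gene name where the share exceeds 9%, and light grey is all other transcripts. The leading transcript is the same in both libraries, from GPI-208 at 35.1% and 31.0% to PKM-202 at 95.6% and 95.3%.

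The difference between the libraries was expressed as log2 of (CPM + 1) in replicate 2 over replicate 1, which understates changes of low genes. Among the 31 genes averaging 1 CPM or more, 22 were higher in replicate 2 and 9 lower. Of all genes that reach this average, 47.8% were higher. The median difference was 0.060, against -0.0077 over all genes. Since the list was chosen on this contrast, nothing is read from that excess. The differences were small: 7 of the 31 reached 0.2 in size, and 20.6% of all genes did.

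The highest value was that of P4HA1, with 76.0 CPM in replicate 1 and 93.0 CPM in replicate 2, a difference of 0.29. BNIP3 had 66.8 and 79.8 CPM (0.25), ENO2 1812 and 2140 CPM (0.24), and NDRG1 67.5 and 79.3 CPM (0.23). ALDOC had 36.5 and 42.3 CPM (0.21), VEGFA 17.2 and 19.7 CPM (0.18) and EGLN3 8.08 and 9.14 CPM (0.16). These are the 7 highest values, and ENO2 and ALDOC among them are the lesser paralogs of their enzymes by TPM. TPI1 differed by 0.12, P4HA2 by 0.12, ADM by 0.11 and SLC2A3 by 0.10.

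Among the lower genes, EGLN1 (-0.26) and ALDOA (-0.23) rest on 50 to 78 reads per library, far under the number predicted from TPM. By TPM EGLN1 differed by -0.20 and ALDOA by -0.0066. VHL had 66.0 and 58.9 CPM (-0.16), HK2 29.04 and 25.9 CPM (-0.16) and PFKP 143 and 134 CPM (-0.09). ENO1, with 2237 and 2175 CPM, differed by -0.04, so the larger share of ENO2 among the enolases in replicate 2 went with more ENO2 and slightly less ENO1. PKM, SLC2A1, GAPDH, PDK1, PGK1, PFKL, HIF1A and CA9 each differed by less than 0.05 in size. HK1, GPI, EPAS1, PFKM, PGAM1 and BNIP3L lay between 0.06 and 0.09. TPM gave the same sign as CPM for 29 of the 31. The exceptions were BNIP3L, with 0.09 by CPM and -0.04 by TPM, and PKM, with -0.01 by CPM and 0.01 by TPM. CA9 kept its sign but not its size, with -0.03 by CPM and -0.41 by TPM, on 35 and 31 reads.

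**Figure D5:**
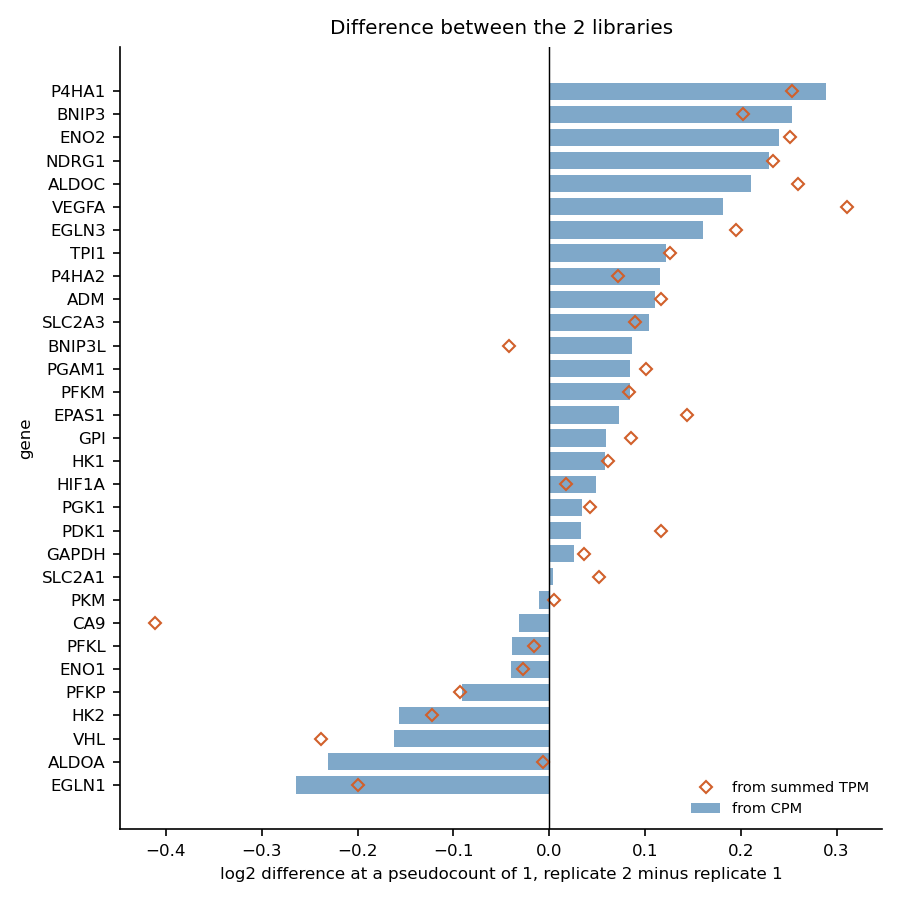
Difference between replicate 2 and replicate 1 on the log2 scale at a pseudocount of 1 for the 31 genes averaging 1 CPM or more. Bars are from CPM, and open diamonds are from summed TPM. By CPM P4HA1 is highest at 0.29 and EGLN1 lowest at -0.26. By summed TPM VEGFA is highest at 0.31 and CA9, with 35 and 31 reads, lowest at -0.41.

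By role, 11 of 17 glycolytic enzymes and transporters were higher in replicate 2, with a median of 0.03, and 11 of 14 other genes, with a median of 0.10. Other genes of the same pathways, which are not among the 33, were listed by function, with earlier results of these libraries known. Their counts and calls are therefore given as a description. An exact binomial test per gene (edgeR, Benjamini-Hochberg adjustment over 15299 genes) set the 2 libraries, not conditions, against counting noise, and called 6.49% of all genes higher in replicate 2 and 6.65% lower. Of 27 further glycolysis genes 21 were detected, and of 22 with enough reads 12 were higher in replicate 2, with a median of 0.0014, 1 called higher and 3 lower. Of 12 further genes of the HIF machinery 11 were detected, 4 of 11 were higher, with a median of -0.03, and none was called higher and 2 lower, the coactivators EP300 and CREBBP. Of 33 further HIF targets 29 were detected, 12 of 29 were higher, with a median of -0.0098, and 3 of 30 were called higher and 6 lower. LDHA, the lactate-forming dehydrogenase, was higher in replicate 2, with 427 and 462 CPM. ANGPTL4, a secreted lipase inhibitor that HIF induces, was lower in replicate 2, with 444 and 414 CPM.

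The sequence before the transcription start was searched for ACGTG and GCGTG on both strands, which together spell the core of the HIF-binding motif, in the RefSeq promoter table (250 bases before the start, GRCh38.p14). Of the 33 genes 28 had an entry, and 18 of them (64.3%) held a match, against 43.2% of 35116 promoters. The median GC content was 70.6% in the genes' windows and 58% in all, and the part of GC content in the share with a match was not tested. In 4 of the 28 a match was part of CACGTG, the E-box of MYC-type factors, against 6.34% of all promoters. HIF1A and EPAS1, the HIF alpha paralogs among the 33, each held 1 match, shown in capitals.
HIF1A, chr14:61695263-61695512, plus strand: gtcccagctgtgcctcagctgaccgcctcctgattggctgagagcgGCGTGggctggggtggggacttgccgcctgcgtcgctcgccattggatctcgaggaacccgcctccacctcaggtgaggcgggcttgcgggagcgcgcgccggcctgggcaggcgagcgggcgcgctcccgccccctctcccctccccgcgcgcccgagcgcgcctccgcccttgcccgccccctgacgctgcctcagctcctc
EPAS1, chr2:46297157-46297401, plus strand: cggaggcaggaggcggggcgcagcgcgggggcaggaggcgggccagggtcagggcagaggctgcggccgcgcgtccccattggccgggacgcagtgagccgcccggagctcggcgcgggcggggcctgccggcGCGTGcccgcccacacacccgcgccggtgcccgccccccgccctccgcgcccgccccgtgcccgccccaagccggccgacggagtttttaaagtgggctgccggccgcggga
The match lies 204 bases before the start in HIF1A and 117 before it in EPAS1. SLC2A1, TPI1, PGAM1 and PKM held none in this window. The RefSeq start lies 48844 bases from that of the leading transcript in HK1, 16774 in PFKM and 193509 in PGK1. The distance is 2757 bases in EGLN1, 1658 in PGAM1, 1482 in ALDOA and 1337 in GAPDH. The window may therefore not be the promoter in use. The windows of SLC2A1, HK2, GPI, ALDOC, TPI1, PGAM1, ENO1, ENO2, PKM, EGLN1, CA12, ADM, P4HA2 and ANKRD37 lay wholly within release 29 exons. A match in those windows lies in sequence annotated as transcribed.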

How the data were processed

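Both deposited tables were used, with 0 columns of per-sample values left out. The authors trimmed reads with Trim Galore 0.6.10 and used STAR 2.7.11a, DESeq2 and Salmon 1.10.2 with GRCh38, per the submitters' processing notes. Their order, the counting method and the annotation release are not given in the sources used here. The deposited TPM are per transcript. The deposited signal per gene, although named CPM, holds reads scaled by a factor of each library: 100% of values above 0 were whole multiples (tolerance 0.001) of 1.02 in replicate 1 and 1.12 in replicate 2, so whole reads were recovered and CPM computed from them.

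The design assumed TPM per gene. Transcripts were therefore summed through GENCODE 29, which matched 201667 of 251955 transcripts and 94.8% of TPM in each library. Wilson intervals and the 0-read limit (3 reads) cover counting error only. The libraries were compared with edgeR 4.0.16 (binomTest, TMM, filterByExpr), which called 2010 of 15299 genes at an adjusted p under 0.05, and the script was tested on simulated data. Calls for the 33 are not given, since they were chosen on this contrast. The 33 genes, and the lists of paralogs, pathways and markers, were chosen with earlier results of these data known. All 33 are named, as are listed paralogs and pathway genes. Alternatives were other pseudocounts, scalings (DESeq2 1.42.0), thresholds, tables and single libraries. With 1 group of 2 libraries, p-values of the binomial test set a difference against counting noise only. They hold no estimate of the spread between samples, and a difference may be technical.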

Additional observations from a re-analysis of the deposited data

How the results depend on the processing

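No paired analysis was possible because there is no second group to pair with. The share of the library in the 33 genes was 1.67% by summed TPM against 1.83% of reads, the median share of the leading paralog 73.0% by reads per kilobase against 76.5% by TPM, and the median share of the leading transcript 96.3% among protein-coding transcripts against 95.5% among all. From 1 TPM upward 2 genes, HK2 and CA9, changed their leading transcript, against 0 from 10 TPM. The median difference between the libraries lay between 0.058 and 0.073 over the other scalings, the other pseudocount, summed TPM and a wider filter, and 22 to 24 genes were higher in replicate 2; leaving out ALDOA and EGLN1, chosen after seeing the data, gave 0.073 and 22. From either library alone 31 genes were detected, the share of reads ranged from 1.79% to 1.87%, the median level from 76.0 to 91.0 CPM, the leading paralog share from 75.9% to 77.1% and the leading transcript share from 95.3% to 95.6%. Detection ranged from 28 genes at 5 CPM to 33 at 0.1 CPM. With 2 libraries, leaving one out cannot move a mean by 1 SD, so these ranges say nothing about stability. Of 208 single values recomputed in other ways, 46 moved by more than the spread between the libraries. The difference between the libraries changed sign for 3 genes: PKM, from -0.01 to 0.0031 with the deposited factors and 0.0053 by TPM, BNIP3L, from 0.09 to -0.04 by TPM, and CA12, from 0.22 to -0.01 by TPM. CA9, CA12 and ANKRD37, with 6 to 35 reads, are limited by depth.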
